A study of Drosophila melanogaster with 4 samples.

Results

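The neuropeptide-like precursor genes Nplp1, Nplp2, Nplp3 and Nplp4 of Drosophila melanogaster were described across 4 fly lines at the pharate adult stage, when the adult is formed but has not yet left the pupal case. The genes were chosen by name, with their FPKM patterns over these 4 libraries already known, and they are 4 of 13866 loci. RNA was taken from the lines LU.10580.tg1, LU.10580.tg2, LU.10580hom and LU.10580/CAG, called tg1, tg2, hom and CAG here. No source used here explains these names or gives genotype, sex or exact age, and the deposited column of CAG is headed het. All animals were raised at 24 °C on one kind of food. Each line had 1 library, so no value has a replicate check, no p-value was computed, and every difference is one between libraries.

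Neuropeptides are made as longer precursors that enter the secretory pathway and are cut into short peptides by processing enzymes. The Nplp genes were named after peptides found in Drosophila neural tissue whose precursors did not belong to the established neuropeptide families, and the shared name does not stand for a gene family by descent. Nplp1 is the most typical of them, a precursor of several amidated peptides such as IPNamide and MTYamide, and it marks a set of neurons of the ventral nerve cord. Nplp2 also carries the names NEF and IM7, the second because its peptide was found among molecules induced by infection in the haemolymph, the blood of the fly. Nplp3 carries the names SHA and VVIamide after its peptides, and Nplp4 the name YSY.

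The 4 genes lie apart from each other in the genome. On build dm3, Nplp1 spans 2R:20919903 to 20927520, Nplp2 3L:13349633 to 13350325, Nplp3 3L:16311124 to 16311790 and Nplp4 2L:2008460 to 2008966. None of the 4 spans overlapped another locus of the files. In the Release 6 annotation all of them are protein-coding and on the plus strand. Nplp2, Nplp3 and Nplp4 are short genes, with annotated transcripts of 452 to 610, 538, and 380 to 528 nt that encode precursors of 86 or 119, 90 and 64 residues. Nplp1 has transcripts of 2044 to 2695 nt and precursors of 309 to 487 residues. Levels are in FPKM, a unit that adjusts fragment counts for the length of the transcript and the size of the library, so levels of different genes can be set side by side. Whether fragment length was corrected for, which matters most for short transcripts, is unstated in these sources.

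The libraries resembled each other in their medians, which lay between 8.05 and 8.48 FPKM over all loci. Small RNA and unnamed loci took much of the signal, and the 10 most abundant loci held 53.7% of the FPKM sum in tg1, 52.0% in tg2, 66.4% in hom and 63.0% in CAG. The smallest steps between low values put the depth of tg1 at 1.12, of tg2 at 1.16 and of hom at 0.766 relative to CAG, which would leave hom with the fewest fragments. These ratios are estimates from 111 to 144 low loci, of which 32 to 52 lay within 3% of the ratio given, and the absolute depth is unknown.

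The Nplp genes did not move together between the lines. Nplp3 differed most, being highest in CAG and lowest in hom. Nplp2 and Nplp4 were both highest in tg1, and Nplp1 had the narrowest range of the 4. A difference here is the log2(FPKM + 1) of the first library minus that of the second, and this scale makes the changes of weakly expressed genes look smaller. A locus was called where 2 libraries differed by at least 1 on it, a 2-fold difference. All 4 genes averaged 1 FPKM or more, the filter for testing, as did 11689 loci in all. Over these loci the median range across the 4 libraries was 0.42, 11.6% had a range of at least 1, and between 3.31% and 6.48% were called in a single pair of lines.

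**Figure D1:**
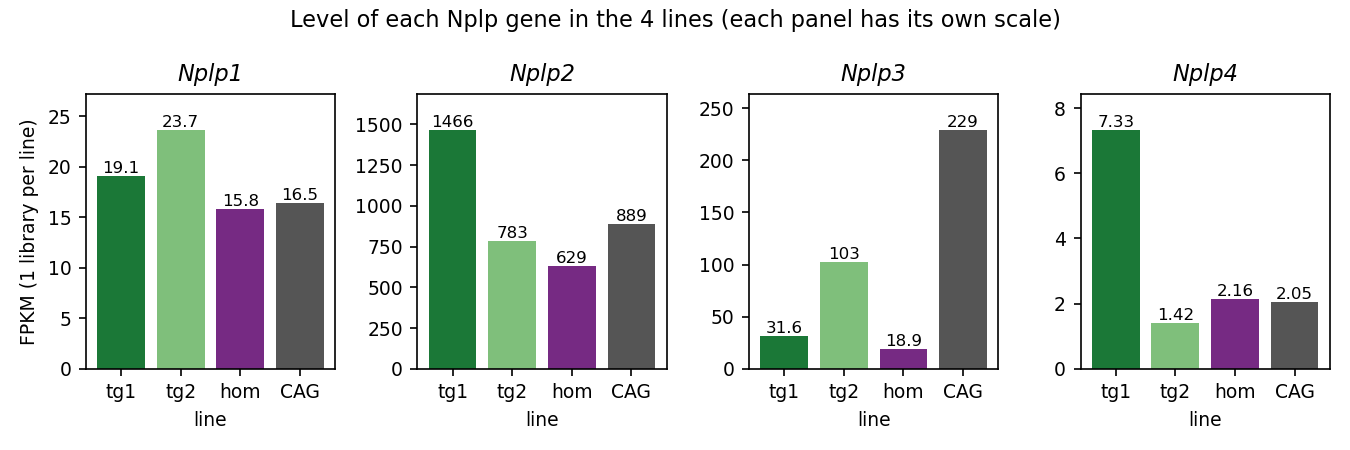
FPKM of Nplp1, Nplp2, Nplp3 and Nplp4 (vertical axes, a separate linear scale in each panel) in the 1 library of each line tg1, tg2, hom and CAG (horizontal axis). The highest bar is tg2 at 23.7 for Nplp1, tg1 at 1466 for Nplp2, CAG at 229 for Nplp3 and tg1 at 7.33 for Nplp4.

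Nplp1, the precursor with the clearest neuronal role, had 19.1 FPKM in tg1, 23.7 in tg2, 15.8 in hom and 16.5 in CAG. The library of tg2 was the highest and hom and CAG lay close together, with a difference of −0.05 between hom and CAG. The widest gap of Nplp1, between tg2 and hom, was 0.55, so none of its 6 differences between lines was called. A range of 0.55 or more was found at 34.0% of the tested loci, so Nplp1 varied more than the median locus.

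Nplp2, the IM7 gene, was by far the most abundant of the 4, with 1466 FPKM in tg1, 783 in tg2, 629 in hom and 889 in CAG. It ranked between 126 and 274 among all 13866 loci in the separate libraries and made up 78.2% to 96.2% of the summed FPKM of the 4 genes. Its level in tg1 stood above the other lines, among which it was lowest in hom. Nplp2 was called higher in tg1 than in hom, by 1.22, a 2.33-fold difference. The differences of tg1 from tg2 and from CAG were 0.90 and 0.72, both short of the call, and the first reached 1.02 when the libraries were scaled without the 10 most abundant loci. Its range of 1.22 was reached or passed by 7.83% of the tested loci.

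Nplp3, the precursor of SHA and VVIamide, had 31.6 FPKM in tg1, 103 in tg2, 18.9 in hom and 229 in CAG. The values of tg1 and hom were low and those of tg2 and CAG high, with CAG 12.1 times hom in FPKM. Nplp3 was called lower in each of the other lines than in CAG, with differences of −2.82 for tg1, −1.15 for tg2 and −3.53 for hom. It was also called lower in tg1 than in tg2, with a difference of −1.67, and higher in tg2 than in hom, by 2.38. Only the difference of 0.71 between tg1 and hom was not called, so 5 of its 6 differences were. A range as wide as its 3.53 was found at 0.941% of the tested loci. Within single libraries Nplp3 lay above 80.8% of all loci in tg1, 93.7% in tg2, 70.1% in hom and 96.2% in CAG.

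Nplp4, the YSY precursor, was the least abundant, with 7.33 FPKM in tg1, 1.42 in tg2, 2.16 in hom and 2.05 in CAG. The tg1 library stood apart and the other 3 lay together at low values. Nplp4 was called higher in tg1 than in tg2 by 1.78, than in hom by 1.40 and than in CAG by 1.45. In FPKM without a pseudocount tg1 was 5.17 times tg2, 3.40 times hom and 3.58 times CAG. At a pseudocount of 5, close to the level of the gene, these 3 differences were 0.94, 0.79 and 0.81 and none was called. The 3 differences among tg2, hom and CAG lay between −0.38 and 0.05. A range of 1.78 or more was found at 3.76% of the tested loci.

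**Figure D2:**
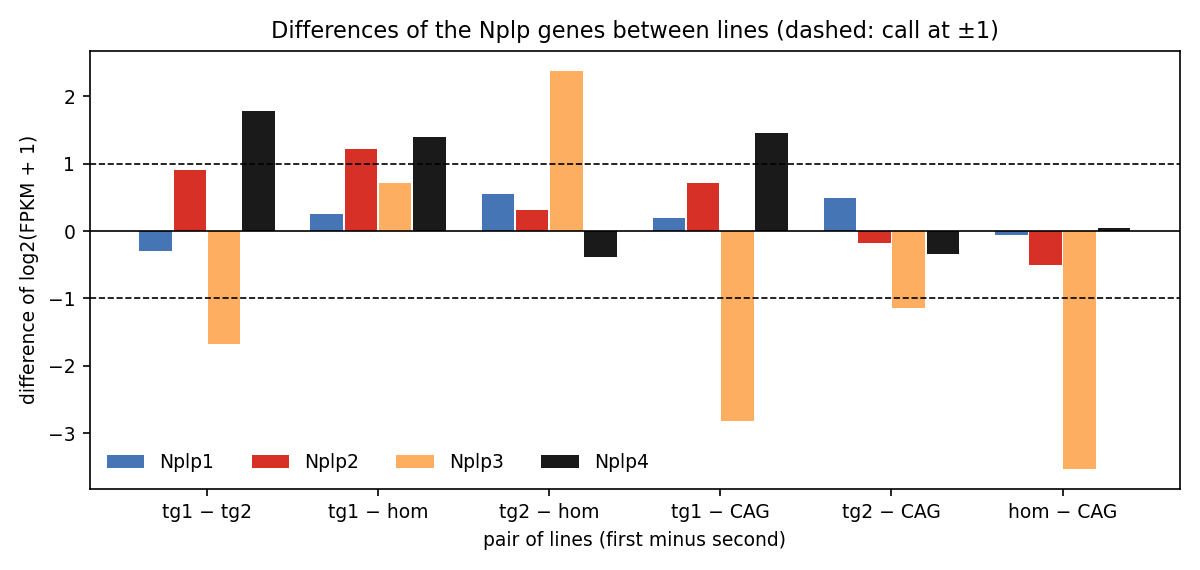
Difference of log2(FPKM + 1) between 2 lines (vertical axis) for the 6 pairs of lines, first line minus second (horizontal axis), with 1 bar for each Nplp gene and dashed lines at the call of 1 in either direction. Nplp3 reaches −3.53 for hom minus CAG and 2.38 for tg2 minus hom, while every bar of Nplp1 stays between −0.30 and 0.55.

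Each pair of lines is set here against the share of all tested loci that was called, and a line occurs in several pairs, so the pairs are not independent. Between tg1 and CAG, Nplp4 was called higher, where 1.19% of loci were, and Nplp3 lower, where 2.36% were. Between tg2 and CAG, Nplp3 was called lower, as were 2.34% of loci, and none of the 4 genes higher, against 2.25%. Between hom and CAG, Nplp3 was again the gene called lower, with 3.43% of loci, and none was called higher, with 1.87%.

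Against hom, tg1 had 2 of the 4 genes called higher, Nplp2 and Nplp4, where 1.82% of loci were, and none lower, where 1.72% were. In tg2 against hom the single call was Nplp3, higher, as were 3.78% of loci, and none was called lower, against 2.69%. Between tg1 and tg2, Nplp4 was called higher, with 1.33% of loci, and Nplp3 lower, with 1.98%. These shares come from 156 loci called higher and 231 lower in tg1, a split of 200 and 188 when the libraries were scaled without the 10 most abundant loci. The line patterns of the Nplp genes were known when the genes were picked for description, so their calls describe these libraries and support nothing further.

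The order of the lines was different for each of the 4 genes. From high to low it ran tg2, tg1, CAG, hom for Nplp1 and tg1, CAG, tg2, hom for Nplp2. It ran CAG, tg2, tg1, hom for Nplp3 and tg1, hom, CAG, tg2 for Nplp4. The first 3 genes thus shared hom as their lowest line, by a small margin in Nplp1, as did 29.5% of all tested loci. The balance between the abundant pair shifted accordingly, and the ratio of the FPKM of Nplp2 to that of Nplp3 was 46.5 in tg1, 7.62 in tg2, 33.3 in hom and 3.88 in CAG.

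Other peptide precursors gave the scale for these levels and ranges. Of 39 listed genes of neuropeptides and peptide hormones 34 had a locus, with mean levels from 1.04 to 80.6 FPKM and a median of 4.34. Nplp2 and Nplp3 had higher means than every listed precursor, 942 and 95.6 FPKM, and by mean Nplp1 ranked 5 and Nplp4 28 among the 38 genes together. In single libraries Nplp3 passed all of them in tg2 and CAG and lay below CCHa2 and CG17777 in tg1 and hom. The most abundant listed gene, CCHa2 (CG14375), a peptide of gut and fat body that acts on insulin secretion, had 73.7 FPKM in tg1, 67.7 in tg2, 108 in hom and 72.9 in CAG. CG17777 came next with 48.7, 21.6, 47.3 and 44.3 FPKM in the same order, and Release 6 gives it no peptide name. It was listed under the name spab, which Release 6 gives to CG8216, another gene of the list. CG17777 stays in the counts of 34, and calls without it are given with the other processing choices. sNPF, the short neuropeptide F precursor that promotes feeding, had 12.3, 17.4, 9.82 and 10.8 FPKM.

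**Figure D3:**
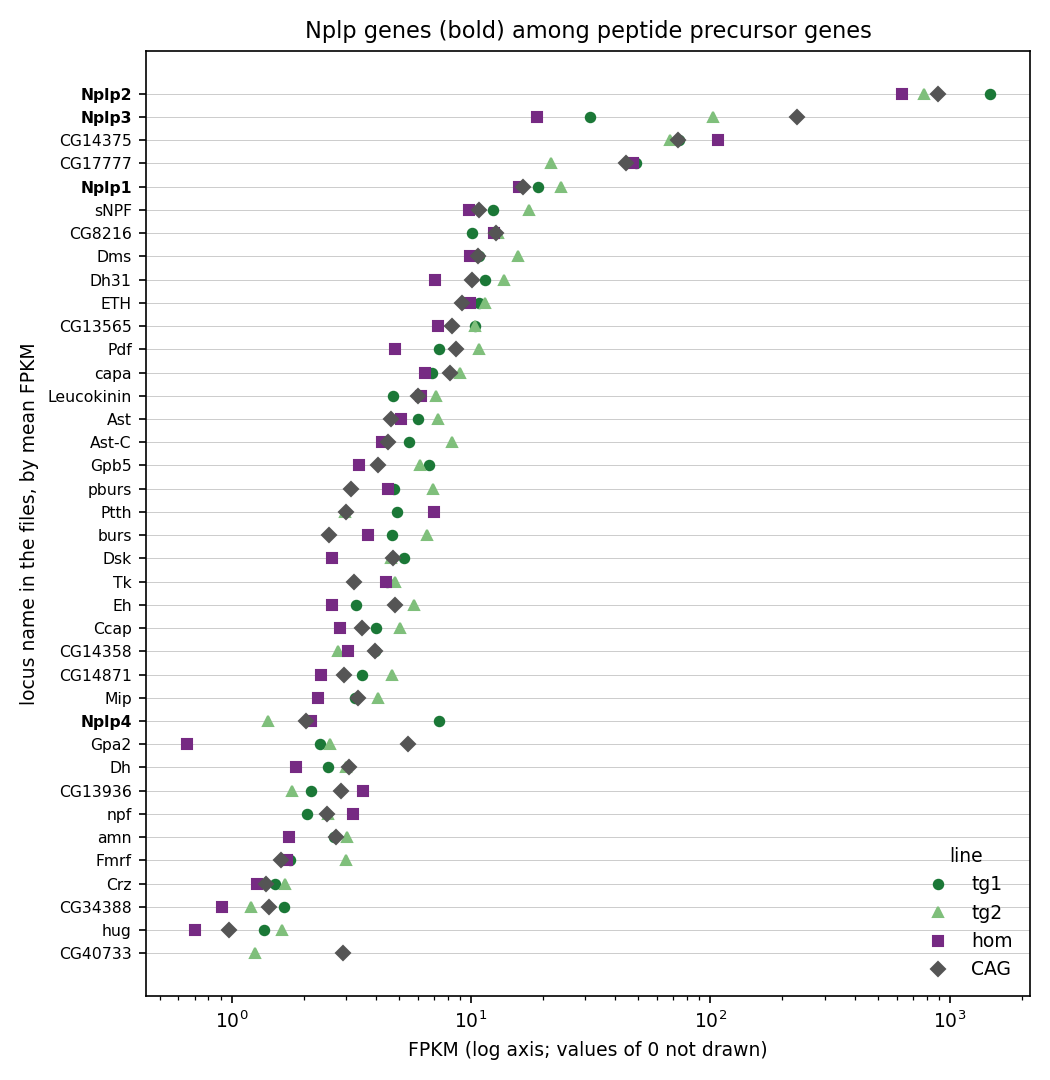
FPKM (horizontal log axis) of the 34 listed peptide precursor loci and the 4 Nplp genes, in bold, sorted by mean level (vertical axis, names as in the files), with 1 symbol per line and values of 0 left out. Nplp2 lies above every other precursor in each line, and the 4 points of Nplp3 spread from 18.9 in hom to 229 in CAG.

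None of the listed precursors had a range as wide as that of Nplp3, and 6 of the 34 had a range of at least 1. The widest were Gpa2, a glycoprotein hormone subunit, and RYa (CG40733), the RYamide precursor, both at low levels. Gpa2 had 2.35 FPKM in tg1, 2.58 in tg2, 0.649 in hom and 5.47 in CAG. RYa was listed at 0 in tg1 and hom, with 1.25 FPKM in tg2 and 2.93 in CAG. Its mean of 1.04 passed the filter only through its values in tg2 and CAG together. All its calls involve tg2 or CAG, so they were set by the filter and are counted here without being read as a result. Between tg2 and hom 3 listed precursors were called higher and 2 lower, where 6.48% of all tested loci were called in either direction. The higher ones were Gpa2, RYa and Pdf, the clock neuron peptide, and the lower ones Ptth, which drives ecdysone release, and CG17777. The differences were 1.12 for Gpa2, 1.17 for RYa and −1.09 for CG17777. Pdf and Ptth had full ranges of only 1.02 and 1.00, so these calls all lay close to the threshold. Pdf and Ptth were named after their values had been seen.

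The other pairs had 2 calls or fewer among the 34. In tg1 against tg2, CG17777 was called higher and RYa lower, the second set by the filter, where 3.31% of all loci were called. In tg1 against hom, Gpa2 was the single call, higher, beside 3.54% of all loci. In tg1 against CAG, the single call was RYa, lower and set by the filter, beside 3.55%. In tg2 against CAG, burs, a subunit of the hormone that hardens the new cuticle, was called higher and CG17777 lower, beside 4.59%. In hom against CAG, Gpa2 was called lower, as was RYa, set by the filter, beside 5.30%. The median difference of the list was 0.55 between tg2 and hom and −0.15 between hom and CAG, where the medians over all tested loci were 0.02 and −0.01.

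Among genes that cut, amidate, store and release peptides, the 13 tested loci had no calls, and most were lowest in hom. The list was drawn up with 17 genes, such as the prohormone convertase amon, its helper 7B2, the amidating enzyme Phm and proteins of dense core vesicles. Of the 17 genes 13 had a locus, and of their 14 loci 13 were tested. In any of the 6 pairs 0 of the 13 were called, where 3.31% to 6.48% of all tested loci were. That share comes to less than 1 of 13. The median difference of the list between tg2 and hom was 0.40, against 0.02 over all tested loci. IA-2 (ia2), a dense core vesicle membrane protein, was the most abundant with 80.3 FPKM in tg1, 82.5 in tg2, 50.2 in hom and 65.3 in CAG. Caps, the CAPS protein needed for dense core vesicle release, had 51.8, 57.3, 34.2 and 43.9 FPKM in these lines. Of the 13 loci 10 had their lowest value in hom, as did 29.5% of all tested loci. Of the same 13, 7 had their highest value in tg2, for which no share over all loci was taken. Gyc76C, a receptor linked to a peptide of Nplp1, had no locus under that name alone, so no value is given for it.

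Markers of cell types gave values to set beside each gene. Of the markers found, 1, in the epidermis and cuticle list, was at 0 in any library. In bulk RNA, fewer cells of a type and less RNA per cell cannot be told apart. Over all tested loci 29.5% were lowest in hom, and the share that was highest in each line was not taken. All 7 tested neuron markers, of 11 listed, were highest in tg2 and lowest in hom, as Nplp1 was. Their summed levels were 520 FPKM in tg1, 648 in tg2, 312 in hom and 446 in CAG. Of these markers Snap25 and nrv3 were called higher in tg2 than in hom, by 1.11 and 1.10, where 3.78% of all tested loci were called higher and Nplp1 differed by 0.55. Also highest in tg2 and lowest in hom were 6 of the 12 photoreceptor, 3 of the 8 glial and 1 of the 8 blood cell markers. No fat body, epidermis and cuticle or oenocyte marker was. The full order of the lines of Nplp1 was found in 3 of the 7 neuron markers, in 9 of the 34 listed precursors and at 7.91% of all tested loci. It was also found in 2 of the 8 glial, 1 of the 12 photoreceptor and 1 of the 8 blood cell markers. The part of neuronal RNA in the values of Nplp1 was not tested.

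Fat body, the tissue that secretes most immune peptides, and blood cells were set beside Nplp2. The summed level of the fat body markers was 3628 FPKM in tg1, 3412 in tg2, 10135 in hom and 4387 in CAG, and 8 of the 10 tested were highest in hom, the line in which Nplp2 was lowest. The level of the hexamerin Lsp2, a storage protein of the fat body, was 1502 FPKM in tg1, 1309 in tg2, 3105 in hom and 1413 in CAG. Lsp2, Fbp1, Lsp1beta and Lsp1alpha held most of the sum in each line, so the sum mostly follows these genes. In hom the last 3 had 2460, 1788 and 1060 FPKM. The median of the 10 tested markers was 189 FPKM in tg1, 196 in tg2, 753 in hom and 342 in CAG. Blood cell markers summed to 241 FPKM in tg1, 189 in tg2, 210 in hom and 185 in CAG, and 5 of the 8 were highest in tg1, as Nplp2 was. No marker of these 2 lists had the full line order of Nplp2, which 2.23% of all tested loci had. The part of these tissues in the values of Nplp2 was not tested.

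The fat body markers were mostly highest in hom, where Nplp3 was lowest, and their widest member, the hexamerin Lsp1alpha, had 51.1 FPKM in tg1, 96.3 in tg2, 1060 in hom and 193 in CAG. Its range of 4.35 was wider than the 3.53 of Nplp3. Epidermis and cuticle markers summed to 1351 FPKM in tg1, 1185 in tg2, 1542 in hom and 1466 in CAG, and 1 of the 15 tested had the line order of Nplp3. Photoreceptor markers summed to 1710, 1904, 1398 and 1781 FPKM in the same lines and 0 of 12 had it. Glial markers summed to 708, 801, 579 and 764 FPKM, with 1 of 8 in that order, and oenocyte markers to 1275, 816, 1056 and 1303 FPKM, with 0 of 3. None of the neuron, fat body or blood cell markers had it either, and 5.53% of all tested loci did. The order of Nplp4 was found in 1 fat body, 1 glial and 1 blood cell marker and at 3.16% of all tested loci. The part of any cell type in the values of Nplp3 and Nplp4 was not tested.

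The loci most like each gene were sought by the root mean square distance between log2(FPKM + 1) profiles centred on their own mean, over the 4 libraries and among 5466 named loci, 5467 for Nplp4, that averaged 10 FPKM or more and had no value of 0. A profile of 4 values is short, so likeness here is a description of these libraries. Nplp1 was left out because its range was below 1.

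Nplp2 was nearest to Cpr72Ea, a cuticle protein gene at 3L:16355703 to 16356780, at a distance of 0.12. Cpr72Ea had 40.3 FPKM in tg1, 21.7 in tg2, 21.1 in hom and 26.0 in CAG, high in tg1 as Nplp2 was. CG11852, named Jhbp7 in Release 6, followed at 0.15 with 37.7, 18.3, 17.8 and 27.8 FPKM. Then came Ccp84Ag, another cuticle protein gene, at 0.17, CG15353 at 0.18 and CG8389 at 0.18. Of these, CG15353 passed the filter of 10 FPKM only through its value in tg1.

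Nplp3 had no locus as near, and its 5 nearest lay at 0.43 to 0.48. They were CG31205, CG42808, CG34217, CG15617 and Rh5, the blue-sensitive opsin of inner photoreceptors. CG15617 had 137 FPKM in tg1, 335 in tg2, 54.5 in hom and 398 in CAG. Rh5 had 5.89 FPKM in tg1, 16.3 in tg2, 1.28 in hom and 19.7 in CAG. All 5 loci had the line order of Nplp3, which a choice by likeness favours. The filter of 10 FPKM also favoured it for CG31205 and Rh5, with means of 14.7 and 10.8 FPKM. CG31205 passed only through its value in CAG, and Rh5 only through tg2 and CAG together. The likeness of these loci is given without being read as a result.

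Nplp4 was nearest to CG15353, at 0.33, which is also the locus next to it on the chromosome. CG15353 lies at 2L:2006763 to 2007193, its start 1697 bp before that of Nplp4. It had 17.3 FPKM in tg1, 7.14 in tg2, 7.83 in hom and 11.6 in CAG, highest in tg1 and lowest in tg2 as Nplp4 was, with hom and CAG in the other order. Its mean of 11.0 FPKM passed the filter of 10 FPKM only through its high value in tg1. The filter thus favoured a locus high in tg1, and the likeness of CG15353 is given without being read as a result. The next 4 were CG3734, CG1850, Cpr72Ea and CG14515, at 0.35 to 0.37. Thus CG15353 and Cpr72Ea were among the 5 nearest of both Nplp2 and Nplp4. For CG15353 this rests on passing the filter through tg1, the highest line of both genes.

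**Figure D4:**
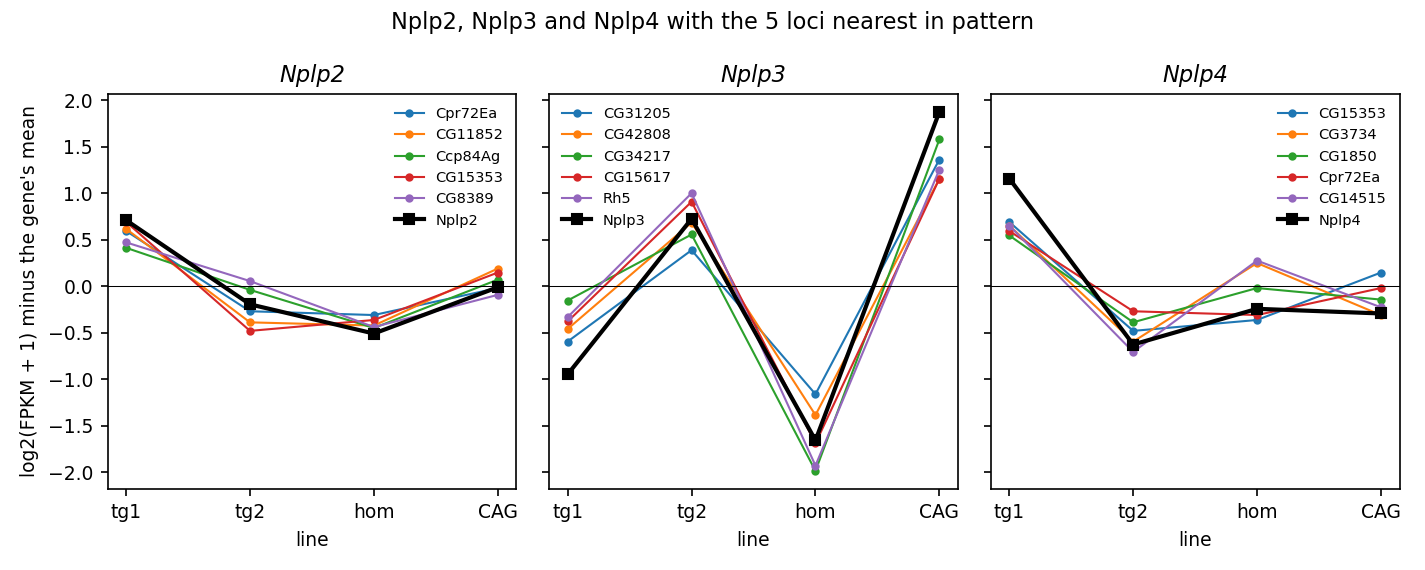
log2(FPKM + 1) minus the gene's own mean over the 4 libraries (vertical axis) in the lines tg1, tg2, hom and CAG (horizontal axis) for Nplp2, Nplp3 and Nplp4 in black and the 5 loci nearest in pattern in colour. Nplp2 and Nplp4 peak in tg1 with their neighbours in pattern, and Nplp3 and its 5 loci are high in tg2 and CAG and lowest in hom.

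Of the other neighbours on the chromosomes, 2 on each side of a gene, a locus without a name near Nplp1 was the only one with the line order of its Nplp gene. CG13062 starts 3739 bp before Nplp3 and had 116 FPKM in tg1, 87.1 in tg2, 216 in hom and 107 in CAG, highest in the line where Nplp3 was lowest. The start of CG13041 lies 930 bp after that of Nplp3, and CG13041 had 5.91, 3.30, 4.26 and 5.04 FPKM in the same lines. CG4238, after Nplp4, had 14.5, 16.3, 12.8 and 14.2 FPKM. Nplp2 had no abundant neighbour, since CG17687 before it had 1.79 to 2.70 FPKM and SNCF after it was listed at 0 in all 4 libraries. Nplp1 lies between uzip, with 46.6 FPKM in tg1, 49.1 in tg2, 50.4 in hom and 56.4 in CAG, and gsb-n, with 0.215 to 1.21 FPKM. The locus without a name follows gsb-n at 2R:20943700 to 20944900 and had 1.00 FPKM in tg1, 2.26 in tg2, a listed 0 in hom and 0.968 in CAG. Its line order thus rested on nearly equal low values of tg1 and CAG and on a listed 0. It is not read as a likeness to Nplp1.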

How the data were processed

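Ribosomal RNA was removed from total RNA of pharate adults, and paired reads of 48 nt were taken, per the labels' protocols. The deposited values are FPKM, computed by the authors for 1 library per line and named so in the column headers. TopHat, SAMtools, bedtools and Cufflinks and the build dm3 are named without versions in the submitters' processing notes. No source used here gives the annotation, the use of strand, the treatment of reads with several matches or the read numbers. A value of 0 can be a failed estimate, so such loci are called listed at 0.

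Differences of log2(FPKM + 1) were taken between the 6 pairs of lines at loci that averaged 1 FPKM or more, with a call at 1, in Python 3.11.15 with pandas 2.3.3. The code that counts calls was tested on simulated data for tg1 minus CAG, which checks the code and not the libraries. Starts were raised by 1, since spans of the files equalled Release 6 gene lengths at 1189 loci when starts were counted from 0 and at 131 when counted from 1. Of 12066 single names 11839 matched Release 6, which was used for names, gene types and lengths only. Named genes were the Nplp genes, the 2 loci on either side of each, the 5 loci nearest in pattern, and the 3 most abundant and 3 widest-ranging loci of each list. Pdf, Ptth, burs and the genes under the closing observations were named after their values had been seen. The members and lists were chosen with earlier results of these data known. Alternatives were pseudocounts of 0.1 and 5, 3 other scalings, no filter, a filter of 5 FPKM and loci with no 0.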

Additional observations from a re-analysis of the deposited data

How the results depend on the processing

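Over 120 recomputed differences of the Nplp genes, under 2 other pseudocounts and 3 other scalings, 116 stayed on the same side of the call and none changed sign. A pseudocount of 5 took the differences of Nplp4 below the call, to 0.94 for tg1 minus tg2, 0.79 for tg1 minus hom and 0.81 for tg1 minus CAG. Scaling without the 10 most abundant loci took Nplp2 past it, with 1.02 for tg1 minus tg2. No paired analysis was possible because each line had 1 library. Counts of called loci moved with the pseudocount and the filter. For tg1 minus tg2, tg1 minus hom, tg2 minus hom, tg1 minus CAG, tg2 minus CAG and hom minus CAG in turn they were 387, 414, 757, 415, 536 and 620. They were 160, 181, 341, 188, 234 and 301 at a pseudocount of 5, and 218, 258, 475, 246, 318 and 377 with a filter of 5 FPKM. At a pseudocount of 0.1 they were 622 for tg1 minus tg2, 699 for tg1 minus hom, 689 for tg1 minus CAG and 808 for tg2 minus CAG. Among the 34 listed precursors a pseudocount of 5 left 1 call for tg1 minus tg2 and 0 for the other pairs. A filter of 5 FPKM left 1, 0, 2, 0, 1 and 0 in the order above. For tg2 minus CAG the count was 5 at a pseudocount of 0.1 and 1 with median centring or trimmed mean scaling, against 2. For tg1 minus CAG it was 2 at a pseudocount of 0.1, against 1. The maturation list had 1 call for hom minus CAG at a pseudocount of 0.1, against 0. Without CG17777, an alternative chosen after the data had been seen, the list of 33 precursors had 1 call each for tg1 minus tg2 and tg2 minus CAG, against 2, and 4 for tg2 minus hom, against 5. The low levels of Nplp4 limit how far its differences can be read, and with 1 library per line nothing separates a line from its library.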

Other observations

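The surroundings of Nplp3 were looked at after its values had been seen. Of 12 tested loci that start within 20 kb of the start of Nplp3, 1 had its line order. This was retinin, a gene of the corneal surface, whose start lies 13895 bp after that of Nplp3. retinin had 13.0 FPKM in tg1, 27.5 in tg2, 7.43 in hom and 32.3 in CAG, and its difference between hom and CAG was −1.98. CG13042, which starts 10026 bp before Nplp3, had 155 FPKM in tg1, 131 in tg2, 338 in hom and 133 in CAG, a difference of 1.34 between hom and CAG. Among the 12 loci 5 were highest in hom, the line in which Nplp3 was lowest. No share over all tested loci was taken for this count, so it is not read as a result.

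Nplp2 carries the name IM7, and loci named IM with a number were listed after its values had been seen. Of the 5 tested ones 4 were lowest in hom, as Nplp2 was and as were 29.5% of all tested loci. Among the 4 was IM2, with 37.3 FPKM in tg1, 11.7 in tg2, a listed 0 in hom and 79.1 in CAG. IM1, IM2 and IM3 lie together at 2R:14271457 to 14275995, and IM4 and IM14 at 2R:16756342 to 16758134. The 5 loci are therefore not taken as independent. Of the 5 tested loci IM4 was lowest in tg2, with 21.5 FPKM in tg1, 7.47 in tg2, 9.17 in hom and 31.3 in CAG. IM3 had 40.6 FPKM in tg1, 30.2 in tg2, 4.88 in hom and 117 in CAG. IM14, named Dso2 in Release 6, had 214 FPKM in tg1, 145 in tg2, 75.6 in hom and 186 in CAG, and it had the line order of Nplp2, highest in tg1 and lowest in hom. The other 4 tested loci were highest in CAG, for which no share over all tested loci was taken.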
